A study of Homo sapiens with 50 samples.

Results

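Gene expression was compared between A549 cells kept without serine and A549 cells kept with serine, both in the vehicle DMSO and both collected 24 h after DMSO was added. A549 is an established line from a human lung adenocarcinoma, so the data describe a single tumour line in culture. The arrays were chosen by their sample titles alone, and they are 6 of the 50 arrays of the series, with 3 from medium without serine and 3 from medium with serine. All cells had first grown in RPMI, and were moved 24 h before DMSO was added into BME medium with nonessential amino acids, made either without or with serine. Both groups therefore carry the same line, the same change of medium and the same vehicle, and serine is the labelled difference between them. The rest of the series, with 16 treatment groups in all and cells from before the change of medium, covers 0, 1.5, 6 and 24 h and a second arm given 1 µM of compound 16, which the study describes as an activator of pyruvate kinase M (PKM). Whether a group's 3 arrays stand for 3 cultures is not said in the labels, so the p-values below measure the spread between arrays, which may be technical.

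The arrays were Affymetrix HG-U219 GeneChips, and the deposited values are log2 signals. Of the 49386 probe sets, the brightest one for each of 18239 genes was used. Array medians of the 6 arrays ran from 5.44 to 5.47 without serine and from 5.40 to 5.46 with serine. The SD of the difference between 2 arrays of 1 group, taken over genes, was 0.231 to 0.239 without serine and 0.215 to 0.244 with serine. The signal of the 3′ minus the 5′ ACTB control set, which rises as RNA degrades, was 1.15 to 1.19 without serine and 1.17 to 1.23 with serine. Of 16 epithelial marker genes, 9 lay above the median gene signal of 6.44, led by the keratin KRT18 at 14.38. All 10 fibroblast and endothelial markers lay at 4.25 to 5.06, and of 9 leukocyte markers only CD68 and LYZ lay above the median gene. Of 15 alveolar type II markers, 3 lay above the median gene. CDKN2A, which A549 cells lack through a deletion, gave 5.24 to 5.90. The numbers in the titles run group by group, so an effect of array order and an effect of serine cannot be told apart.

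Serine is a nonessential amino acid that cells take up from the medium or make from the glycolytic intermediate 3-phosphoglycerate through PHGDH, PSAT1 and PSPH. It feeds protein synthesis, glycine and folate one-carbon units, and through cystathionine β-synthase (CBS) it gives its carbon skeleton to cysteine. When an amino acid runs short, uncharged tRNA activates the kinase GCN2, and the transcription factor ATF4 is then translated more and raises genes for amino acid synthesis, carriers and tRNA charging.

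After 24 h in DMSO, few genes differed between cells without and with serine, and most differences were small. In all, 16 genes were higher without serine, among them the secreted or surface proteins CEMIP, FCGBP, TFF1, IGFBP1, CLDN2 and FN1, and 13 were lower, among them CBS, NUPR1, ASNS, PSAT1, SLC7A1 and 3 cytosolic aminoacyl-tRNA synthetases. The called synthetases, the called carrier and the called enzymes CBS, ASNS and PSAT1 were lower in the cells without serine, while the amino acid synthesis enzymes ASS1 and GLUL were higher. In the moderated test of limma with Benjamini-Hochberg adjustment over all genes, the 29 genes with an adjusted p under 0.05 were 0.159% of the 18239 tested, with 0.0877% higher and 0.0713% lower. An unadjusted p under 0.05 was seen for 1427 genes. Only CEMIP reached a fitted 2-fold difference, and the median standard error of a difference was 0.122 on the log2 scale. Centring each array on its median gave 8 higher and 20 lower genes, quantile normalization gave 9 and 14, and a fit of these 6 arrays alone gave 0, with 1283 at an unadjusted p under 0.05. Leaving out 1 array at a time left 9 genes called without the array numbered 98, 39 and 29 without the other 2 arrays with serine, and 11, 17 and 15 without each of the 3 arrays of the cells without serine, with ASNS, CARS1, CBS, CEMIP, FCGBP, MARS1, NUPR1 and SLC7A1 called each time. The calls of CLDN2, FN1, GLUL, KDELR3 and KRTAP6-2 were lost under both other scalings, and averaging all probe sets of a gene ended those of CEMIP, ENC1, GLUL, GPCPD1, KRTAP6-2, RHBDD1, SLC7A1, SYT13 and TF.

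**Figure D1:**
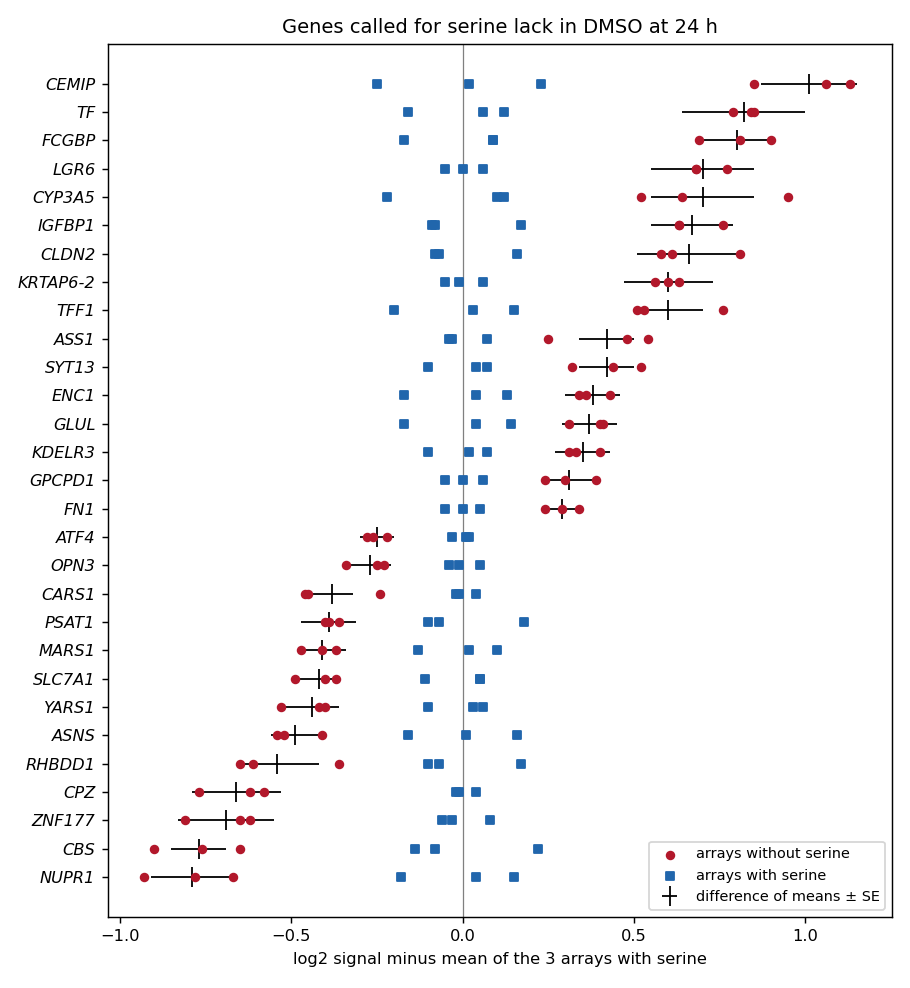
Signals of the 29 called genes at 24 h in DMSO, drawn for each array as the log2 signal minus the mean of the 3 arrays with serine, and the fitted log2 difference with its standard error. In each of the 29 genes the 3 arrays without serine lie to 1 side of the 3 with serine, with CEMIP at a difference of 1.01 and NUPR1 at -0.79. Over all genes, 12.7% had such separate arrays. The 29 genes were chosen by a test on these same arrays, which favours their separation.

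Among genes of serine, cysteine and asparagine metabolism, CBS had the smallest p of all genes. CBS joins serine to homocysteine in the first step toward cysteine. Its log2 signal was 8.41, 8.66 and 8.55 without serine, against 9.17, 9.23 and 9.53 with serine. All 3 arrays without serine were below all 3 with serine, and the difference was -0.77 ± 0.08 on the log2 scale (SE, n = 3 arrays per group, adjusted p = 1.47e-07). The other probe sets of CBS gave differences from -1.22 to -0.40. ASNS, the asparagine synthetase and a classic ATF4 target, had signals of 10.75, 10.73 and 10.86 without serine and 11.11, 11.28 and 11.43 with serine. The groups did not overlap, and ASNS was lower by a log2 difference of -0.49 ± 0.07 (adjusted p = 3.41e-05), with its other probe sets at -0.52 to -0.47. PSAT1, the aminotransferase of the serine synthesis pathway, had signals of 11.12, 11.15 and 11.11 without serine and 11.44, 11.41 and 11.69 with serine. It too was lower in every array without serine (log2 difference -0.39 ± 0.08, adjusted p = 0.0271). The other probe sets of PSAT1 gave -0.48 to -0.04, and 2 of the 6 fits without a single array kept its call.

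The remaining enzymes that make or use serine did not pass the test. PHGDH, the first enzyme of serine synthesis, averaged 9.54 ± 0.14 without serine and 9.54 ± 0.17 with serine (SD, n = 3 each; adjusted p = 0.994). PSPH, the last enzyme, had a difference of -0.12 ± 0.06 (adjusted p = 0.661). Its arrays without serine were all below those with serine, as in 6.16% of all genes, and its other probe sets gave -0.51 and -0.05. The serine hydroxymethyltransferases, which split serine into glycine and a one-carbon unit, had differences of -0.16 ± 0.07 for the cytosolic SHMT1 and 0.05 ± 0.07 for the mitochondrial SHMT2. MTHFD2, a mitochondrial folate enzyme and ATF4 target, had a difference of -0.18 ± 0.06 (adjusted p = 0.288). CTH, which completes cysteine synthesis after CBS, had -0.13 ± 0.13, and PKM had 0.03 ± 0.07. None of 17 measured folate and glycine enzymes was called, and their median difference was 0.03, against 0.00 over all genes. Of 16 genes for transsulfuration, the methionine cycle and glutathione, CBS was the single one called, and the median was -0.02. The share called over all genes was 0.159%.

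The amino acid response genes that passed the test included the transcription factor itself. ATF4 had signals of 12.78, 12.72 and 12.74 without serine and 13.01, 12.97 and 13.02 with serine. The gap between the groups was wider than the spread within either, although the difference was small (-0.25 ± 0.05, adjusted p = 0.0221). The call of ATF4 was lost under quantile normalization, and 1 of the 6 fits without a single array kept it. NUPR1, a small stress-induced chromatin protein, had signals of 8.03, 7.92 and 7.77 without serine and 8.52, 8.74 and 8.85 with serine. That is a 1.73-fold higher signal with serine, a log2 difference of -0.79 ± 0.12 (adjusted p = 0.000308). Of 20 measured genes on a list of ATF4 and its targets, these and ASNS were the 3 called lower and 0 were called higher. Of all genes, 0.0713% were called lower and 0.0877% higher. The median difference of the list was -0.18, with 15 of 20 genes below 0, against 9046 of all 18239 genes. TRIB3 at -0.06, DDIT4 at -0.01, ATF3 at 0.01 and CHAC1 at 0.04 were close to 0. NIBAN1, on the same list, stood at 0.70 ± 0.16 without being called (adjusted p = 0.0638).

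Aminoacyl-tRNA synthetases charge tRNAs with their amino acids, and several are raised by ATF4. MARS1, for methionine, had signals of 9.80, 9.74 and 9.84 without serine and 10.08, 10.23 and 10.31 with serine (difference -0.41 ± 0.07, adjusted p = 0.000715). CARS1, for cysteine, had 8.94, 8.72 and 8.73 without serine and 9.22, 9.17 and 9.16 with serine (difference -0.38 ± 0.06, adjusted p = 0.00182). YARS1, for tyrosine, had 8.70, 8.81 and 8.83 without serine and 9.26, 9.13 and 9.29 with serine (difference -0.44 ± 0.08, adjusted p = 0.0038). For each of these 3 enzymes, every array without serine was below every array with serine. Among all 19 measured cytosolic synthetases, these were the 3 called, the median difference was -0.10, and the arrays did not overlap in 9 with the cells without serine lower and in 0 with them higher. Over all genes, 0.0713% were called lower, 6.16% had such separate arrays with the lower signals without serine and 6.50% with the higher. AARS1, for alanine, just missed the threshold at -0.35 ± 0.08 (adjusted p = 0.0527), and SARS1, which charges serine itself, stood at -0.10 ± 0.07.

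Of 19 amino acid carriers, SLC7A1 was the single one called, where 0.159% of all genes were called. SLC7A1 carries the cationic amino acids arginine and lysine. Its signals were 8.11, 8.14 and 8.02 without serine and 8.56, 8.40 and 8.56 with serine, a difference of -0.42 ± 0.06 (adjusted p = 0.000308). Its 3 other probe sets gave differences of -0.13, -0.10 and 0.38, so the call rests on the brightest set. SLC1A4, a carrier of serine and other neutral amino acids, stood at -0.39 ± 0.09 (adjusted p = 0.0638), and SLC7A11, the cystine carrier, at 0.05 ± 0.06. The median over the carriers was -0.02, with 9 above 0 and 10 below 0, and their differences ran from -0.42 to 0.60.

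The other 4 lower genes lie outside these groups. OPN3, an opsin, had signals of 11.25, 11.14 and 11.23 without serine and 11.44, 11.47 and 11.53 with serine (difference -0.27 ± 0.06, adjusted p = 0.0373). RHBDD1, a rhomboid protease, was lower by a difference of -0.54 ± 0.12 (adjusted p = 0.0327), while its other probe sets gave -0.31 to 0.14. The zinc finger gene ZNF177 and the carboxypeptidase gene CPZ were dim, averaging 4.52 and 4.81 without serine and 5.21 and 5.47 with serine, where the 25th percentile of all genes was 4.44. Their differences were -0.69 ± 0.14 and -0.66 ± 0.13.

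Among the higher genes, CEMIP showed the greatest difference. CEMIP binds hyaluronan, a matrix polysaccharide, and takes part in its breakdown. Its signals were 6.80, 6.73 and 6.52 without serine and 5.90, 5.69 and 5.42 with serine. The lowest array without serine exceeded the highest with serine (log2 difference 1.01 ± 0.14, adjusted p = 3.56e-05). The signals with serine lay within the range of CDKN2A, 5.24 to 5.90, a gene these cells lack, so they are not shown to be above background and the size of the difference is uncertain. A second, dim CEMIP probe set gave -0.15. None of the other genes on a list of 11 hyaluronan genes was called, and the list's median was 0.00.

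FCGBP and TFF1 encode secreted proteins of mucous epithelia, a large mucin-associated protein and a small trefoil peptide. FCGBP had signals of 10.57, 10.66 and 10.45 without serine and 9.85, 9.85 and 9.59 with serine, 1.74-fold higher without serine (log2 difference 0.80 ± 0.11, adjusted p = 3.41e-05). TFF1 had 10.04, 10.29 and 10.06 without serine and 9.68, 9.56 and 9.33 with serine (difference 0.60 ± 0.10, adjusted p = 0.00191). In both genes the arrays of the groups were apart. These were the 2 called among 26 measured mucosal and secretory airway genes, whose median was 0.04, where 0.0877% of all genes were called higher. LYZ, the secreted enzyme lysozyme, stood at 0.98 ± 0.23 (adjusted p = 0.0755) and the mucin MUC5B at 0.34 ± 0.17 (adjusted p = 0.633). AGR2 and CEACAM6, with signals above 13 in both groups, had differences of 0.03 and 0.01.

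CLDN2, a claudin that forms cation pores in tight junctions, had signals of 9.64, 9.84 and 9.61 without serine and 9.19, 8.95 and 8.96 with serine (difference 0.66 ± 0.15, adjusted p = 0.0423). FN1, the matrix protein fibronectin, had 12.87, 12.92 and 12.82 without serine and 12.63, 12.58 and 12.53 with serine (difference 0.29 ± 0.06, adjusted p = 0.0343), and its other probe sets gave 0.18 to 0.36. In CLDN2 and FN1 all arrays without serine were above all arrays with serine. FN1 was the single gene called of 21 mesenchymal and matrix genes, whose median was -0.06. IGFBP1, a secreted binding protein of insulin-like growth factors that is raised by fasting in liver, had signals of 10.28, 10.15 and 10.15 without serine and 9.69, 9.43 and 9.44 with serine. IGFBP1 was higher by 0.67 ± 0.12 (adjusted p = 0.00251) and was the single gene called of 15 in the insulin-like growth factor system. Beside this list and the matrix list, the share called over all genes was 0.159%. TF, the iron carrier transferrin, had 6.52, 6.51 and 6.46 without serine and 5.51, 5.73 and 5.79 with serine, a difference of 0.82 ± 0.18 (adjusted p = 0.0461). Its 3 other probe sets gave 0.04 to 0.25, far less than the brightest, and its signals with serine also lay within the range of CDKN2A.

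A pair of enzymes of amino acid synthesis ran against the direction of ASNS and PSAT1. ASS1, the argininosuccinate synthase of arginine synthesis, had signals of 8.75, 9.04 and 8.98 without serine and 8.46, 8.47 and 8.57 with serine (difference 0.42 ± 0.08, adjusted p = 0.00557). GLUL, the glutamine synthetase, had 9.84, 9.85 and 9.75 without serine and 9.58, 9.48 and 9.27 with serine (difference 0.37 ± 0.08, adjusted p = 0.0393), and its other probe sets gave -0.08 to 0.44. Both genes were thus higher in every array without serine. The cytochrome P450 gene CYP3A5, a drug-metabolizing enzyme, was higher by 0.70 ± 0.15, and LGR6, a receptor for R-spondins in Wnt signalling, by 0.70 ± 0.15. SYT13, a synaptotagmin, and ENC1, a kelch protein that binds actin, were higher by 0.42 ± 0.08 and 0.38 ± 0.08. Other probe sets gave 0.03 to 0.44 for CYP3A5, 0.01 to 0.10 for SYT13 and 0.31 for ENC1. KDELR3, a receptor that returns proteins to the endoplasmic reticulum, and GPCPD1, a glycerophosphocholine phosphodiesterase, were higher by 0.35 ± 0.08 and 0.31 ± 0.07. KRTAP6-2, a hair keratin-associated gene with a dim signal averaging 4.53 without serine and 3.93 with serine, completed the 16, and its other probe set gave -0.05. TXNIP, a glucose-responsive arrestin, had signals of 8.51, 8.55 and 8.13 without serine and 7.73, 7.45 and 7.31 with serine. Its groups did not overlap, but the difference of 0.90 ± 0.23 did not pass the test (adjusted p = 0.109). In bulk RNA from a culture, a change in every cell and a change in a share of the cells cannot be told apart.

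The promoters of the 2 genes with the smallest p in each direction, CEMIP and FCGBP for the higher genes and CBS and ASNS for the lower, are shown because amino acid response elements, where ATF4 binds with a C/EBP partner, lie near the start of many of its targets. Each run holds the 250 bases before the gene's start in RefSeq (build GRCh38.p14), 5′ to 3′ on the gene's own strand, with capitals for a match to TGATGNAA on either strand. The places are chr15:80779120-80779369 (plus strand) for CEMIP, chr19:39934635-39934884 (minus strand) for FCGBP, chr21:43076378-43076627 (minus strand) for CBS and chr7:97872409-97872658 (minus strand) for ASNS.
CEMIP: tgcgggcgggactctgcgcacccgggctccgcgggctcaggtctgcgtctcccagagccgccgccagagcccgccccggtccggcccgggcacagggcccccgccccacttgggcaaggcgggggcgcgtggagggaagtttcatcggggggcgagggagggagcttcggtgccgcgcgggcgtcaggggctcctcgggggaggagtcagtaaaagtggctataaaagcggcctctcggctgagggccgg
FCGBP: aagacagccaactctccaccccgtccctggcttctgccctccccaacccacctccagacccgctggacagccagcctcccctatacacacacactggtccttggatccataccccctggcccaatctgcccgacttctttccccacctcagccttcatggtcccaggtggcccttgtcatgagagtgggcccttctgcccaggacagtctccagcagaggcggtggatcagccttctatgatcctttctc
CBS: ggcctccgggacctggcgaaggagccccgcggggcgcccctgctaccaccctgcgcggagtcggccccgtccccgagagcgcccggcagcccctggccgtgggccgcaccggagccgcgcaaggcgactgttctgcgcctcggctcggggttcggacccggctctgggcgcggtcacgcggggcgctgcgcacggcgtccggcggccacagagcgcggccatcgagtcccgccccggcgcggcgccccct
ASNS: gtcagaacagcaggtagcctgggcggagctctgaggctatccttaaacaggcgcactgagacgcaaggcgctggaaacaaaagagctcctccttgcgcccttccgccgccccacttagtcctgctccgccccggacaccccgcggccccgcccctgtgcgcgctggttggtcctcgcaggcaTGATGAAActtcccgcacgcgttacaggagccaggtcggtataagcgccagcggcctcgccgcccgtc
Of these 4 promoters, ASNS alone held a match, TGATGAAA on its own strand, 68 bases before the start. The motif was found in 870 of 27305 promoters in the same window, or 3.2%. Promoters were found for 11 of the 16 higher genes, of which 1 held a match (KRTAP6-2), and for 10 of the 13 lower genes, of which 1 held a match (ASNS). A match describes these letters only.

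The 3 earlier times in DMSO share no array with the 24 h comparison, so they show the 29 genes in other arrays, 3 per group apart from 2 with serine at 1.5 h. At 0 h the cells had already spent 24 h in the medium. The 16 genes that were higher at 24 h were above 0 in 16 of 16 at 0 h, 16 of 16 at 1.5 h and 15 of 16 at 6 h. Of the 16, 12 were called higher at 0 h, 13 at 1.5 h and 13 at 6 h, and 0 were called lower. Over all genes, 2.99% were called higher at 0 h, 1.05% at 1.5 h and 1.75% at 6 h. The median difference of the 16 was 0.48 at 0 h, 0.50 at 1.5 h, 0.56 at 6 h and 0.60 at 24 h. FCGBP had differences of 1.11 ± 0.11 at 0 h, 0.98 ± 0.12 at 1.5 h, 1.02 ± 0.11 at 6 h and 0.80 ± 0.11 at 24 h. CEMIP had 0.75 ± 0.14 at 0 h, 0.85 ± 0.15 at 1.5 h, 1.36 ± 0.14 at 6 h and 1.01 ± 0.14 at 24 h. These 2 genes were called at each of the 4 times. The gene below 0 at 6 h was KRTAP6-2, with 0.12 ± 0.13 at 0 h and -0.29 ± 0.13 at 6 h, and of the 4 times it was called at 24 h alone.

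The 13 lower genes did not hold their direction. Of the 13, 12 were below 0 at 0 h and 12 at 1.5 h, 11 were above 0 at 6 h, and all 13 were below 0 at 24 h. At 0 h 9 were called lower and at 1.5 h 8 were called lower, where 2.91% and 0.927% of all genes were. Under median centring the 1.5 h calls over all genes were 82 higher and 395 lower, against 191 and 169, and of the 13 genes 9 were called lower. At 6 h 9 were called higher, against 1.75% of all genes, and OPN3 was called lower, as were 1.43% of all genes. The median difference of the 13 was -0.41 at 0 h, -0.36 at 1.5 h, 0.38 at 6 h and -0.44 at 24 h. CBS had differences of -0.69 ± 0.08 at 0 h, -0.69 ± 0.09 at 1.5 h, 0.38 ± 0.08 at 6 h and -0.77 ± 0.08 at 24 h. ASNS had -0.41 ± 0.07 at 0 h, -0.36 ± 0.07 at 1.5 h, 0.35 ± 0.07 at 6 h and -0.49 ± 0.07 at 24 h. NUPR1 had -0.73 ± 0.12 at 0 h, -0.49 ± 0.13 at 1.5 h, 0.62 ± 0.12 at 6 h and -0.79 ± 0.12 at 24 h. In each of these 3 genes all 4 differences passed the test, and the 6 h difference alone was positive. ATF4 was lower at 0 h (-0.26 ± 0.05), stood at 0.15 ± 0.06 at 1.5 h without passing, was higher at 6 h (0.53 ± 0.05) and was lower at 24 h. OPN3 kept 1 direction, with -0.32 ± 0.06 at 0 h, -0.38 ± 0.07 at 1.5 h, -0.40 ± 0.06 at 6 h and -0.27 ± 0.06 at 24 h.

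**Figure D2:**
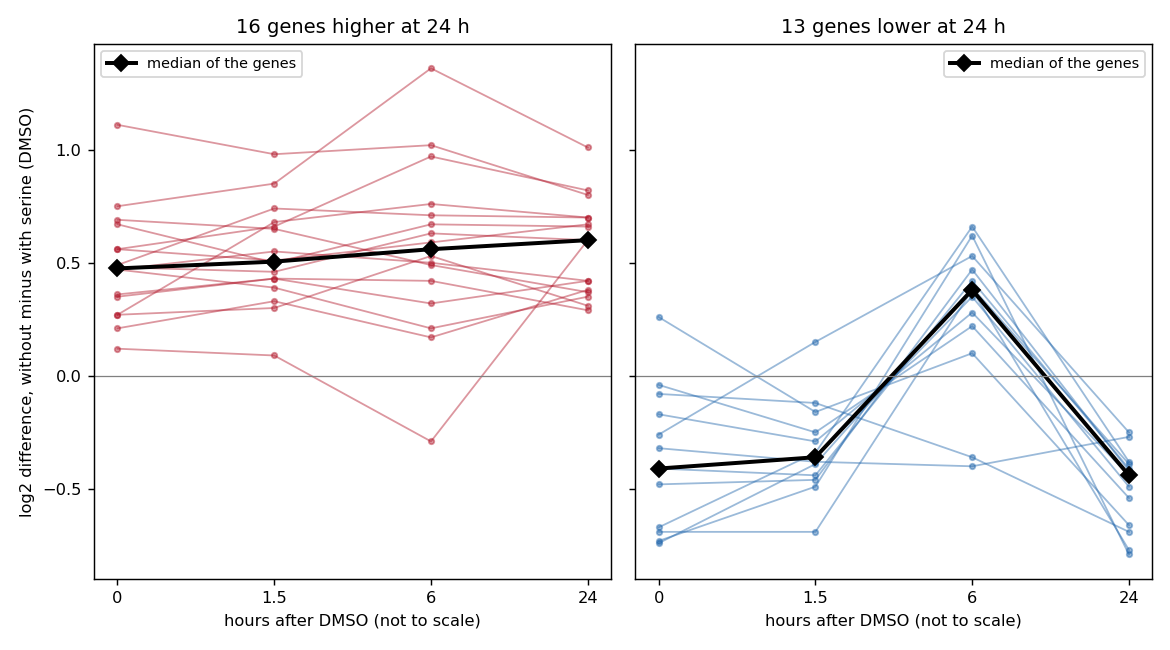
Log2 difference without minus with serine, in DMSO at 0, 1.5, 6 and 24 h, for the 16 genes higher (1 panel) and the 13 genes lower (the other panel) without serine at 24 h, with the median as a black line. The median of the 16 stays between 0.48 and 0.60, and the median of the 13 is 0.38 at 6 h and between -0.44 and -0.36 at the other times.

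Whether the effect of serine lack at 24 h differed from that at 6 h was tested as a difference of differences, which shares the 24 h arrays with the comparison above. Of all genes, 39 had a greater and 74 a smaller difference at 24 h than at 6 h, or 0.214% and 0.406% of those tested. Of the 13 lower genes, 11 were among the 74, all but OPN3 and ZNF177, a count that the choice of the genes by their 24 h difference favours. NUPR1 changed by -1.41 ± 0.17 (adjusted p = 1.16e-06), CBS by -1.14 ± 0.11 (adjusted p = 7.13e-09) and CARS1 by -1.05 ± 0.09 (adjusted p = 1.1e-09). ATF4 changed by -0.78 ± 0.07 (adjusted p = 3.36e-09). Of the 16 higher genes, KRTAP6-2 was called (0.88 ± 0.19, adjusted p = 0.0145), and for CEMIP the change was -0.35 ± 0.19 and for FCGBP -0.22 ± 0.15. Other ATF4 targets that were not called at 24 h changed too: STC2, a secreted glycoprotein, had a difference of 1.97 ± 0.17 at 6 h and -0.42 ± 0.17 at 24 h, a change of -2.39 ± 0.24 (adjusted p = 1.23e-08). The 24 h averages of STC2, 5.37 without and 5.79 with serine, lay within the range of CDKN2A, so the size of its change is uncertain. TRIB3, a pseudokinase that restrains ATF4 signalling, had 1.05 ± 0.07 at 6 h and -0.06 ± 0.07 at 24 h, and MTHFD2 had 0.79 ± 0.06 at 6 h and -0.18 ± 0.06 at 24 h. Of the 20 genes on the ATF4 list, all 20 changes were below 0 and 10 were called. Of the 19 synthetases, 8 were called lower and 0 higher.

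The levels show in which medium the signals moved between 6 and 24 h. CBS averaged 9.92 at 6 h and 8.54 at 24 h without serine, and 9.54 at 6 h and 9.31 at 24 h with serine. Its change between these times was -1.38 ± 0.08 without serine and -0.23 ± 0.08 with serine. ASNS averaged 11.91 at 6 h and 10.78 at 24 h without serine, and 11.56 at 6 h and 11.27 at 24 h with serine, changes of -1.13 ± 0.07 and -0.28 ± 0.07. NUPR1 changed by -1.15 ± 0.12 without serine and by 0.26 ± 0.12 with serine, the second not called. Of the 13 lower genes, 10 fell between 6 and 24 h without serine, while with serine 4 fell and 2 rose. These genes were chosen on the same 24 h arrays, which favours a gap between the media, so the counts are a description. Over all genes, 7.35% fell and 4.47% rose without serine, and 9.67% fell and 5.78% rose with serine. Under median centring these counts of all genes turned to 814 fallen and 1244 risen without serine and 1145 fallen and 1611 risen with serine, and under quantile normalization to 1032 and 979 without serine and 1356 and 1223 with serine. The count of 10 among the 13 genes without serine was the same under both scalings. Among the higher genes, FCGBP rose between 6 and 24 h by 1.25 ± 0.11 without serine and by 1.47 ± 0.11 with serine, and CLDN2 by 1.01 ± 0.15 and 1.02 ± 0.15. Of the 16, 10 rose and 0 fell without serine, and 10 rose and 2 fell with serine (KDELR3 by -0.32 and KRTAP6-2 by -0.41).

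**Figure D3:**
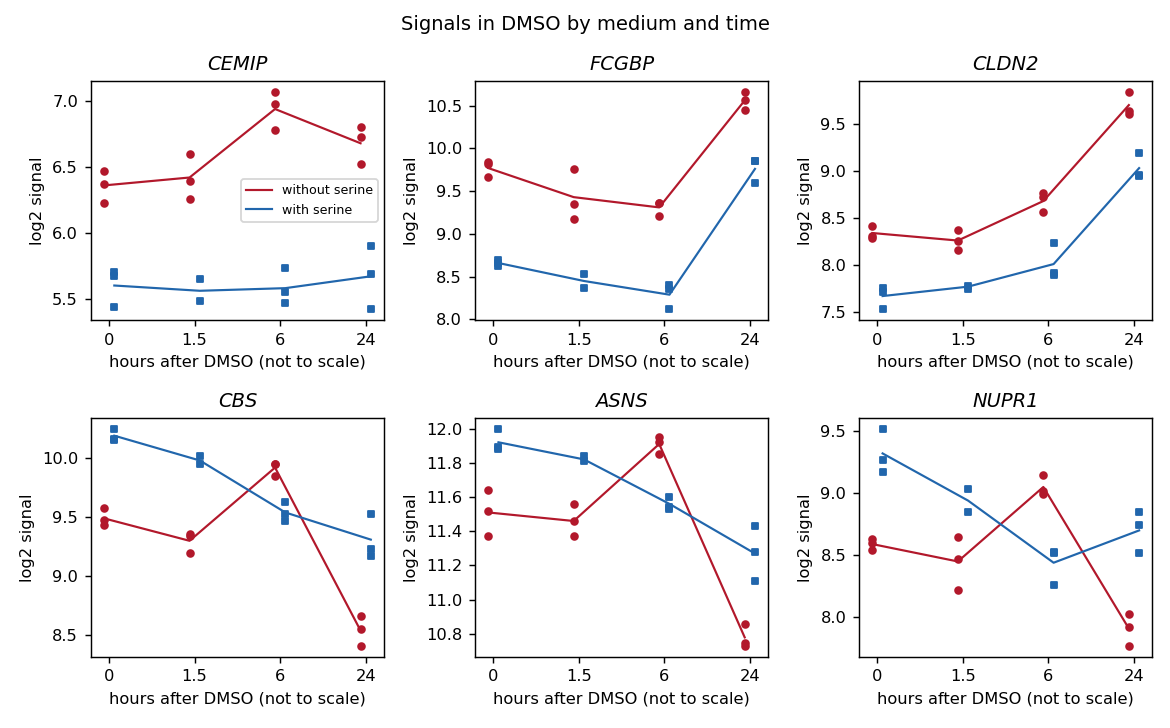
Log2 signal of CEMIP, FCGBP, CLDN2, CBS, ASNS and NUPR1 in DMSO at 0, 1.5, 6 and 24 h, without and with serine, with points for single arrays and a line through the means. CEMIP, FCGBP and CLDN2 run higher without serine at each time, and the lines of CBS, ASNS and NUPR1 cross, with means at 24 h of 8.54, 10.78 and 7.91 without serine and 9.31, 11.27 and 8.70 with serine.

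No listed cell cycle gene passed the test at 24 h, although most mitosis genes had at the earlier times. Of 35 measured mitosis genes (cyclins, kinases and spindle proteins of dividing cells), 0 were called at 24 h and the median difference was -0.02. The median was -0.30 at 0 h, -0.33 at 1.5 h and -0.30 at 6 h, with 27, 22 and 23 of the 35 called lower and 0 called higher at these times, where 2.91%, 0.927% and 1.43% of all genes were called lower. Under median centring, 27, 32 and 23 of the 35 were called lower. Between 6 and 24 h, 30 of the 35 rose without serine (median 0.37), and 11 rose and 1 fell with serine (median 0.09), where 4.47% and 5.78% of all genes rose. Under median centring, 32 rose without serine and 13 rose with serine, beside 1244 and 1611 of all genes. The change in the serine effect between 6 and 24 h was above 0 in all 35. Over all genes, 0.214% passed the test with a greater difference at 24 h, and of the 35 genes 4 did. These were SGO2 at 0.66, CDC20 at 0.47, BIRC5 at 0.40 and AURKA at 0.38, whose products guard sister chromatids, activate the anaphase-promoting complex, or serve in the spindle. The 32 genes of DNA replication and S phase had 0 called and a median of -0.03 at 24 h, against medians of -0.19 at 0 h, -0.19 at 1.5 h and -0.23 at 6 h. Unlike the mitosis genes, they did not rise between 6 and 24 h. Without serine 0 rose and 13 fell (median -0.23), and with serine 0 rose and 25 fell (median -0.40). Of all genes, 7.35% fell without serine and 9.67% with serine.

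Most other gene groups showed no called gene. Of 38 lists, 29 held none, among them glycolysis (median 0.00), p53 targets (0.03), the unfolded protein response (-0.01), cholesterol synthesis and uptake (0.01), hypoxia-induced genes (0.05) and NRF2 targets (-0.01). The list of chemokines, cytokines and NF-kB genes had the highest median, 0.14 over 21 genes, with 0 called. In it, CXCL8, a neutrophil chemokine, stood at 0.82 ± 0.20 (adjusted p = 0.0759) and CXCL3 at 0.61 ± 0.18 (adjusted p = 0.194). Lists of leukocyte, and of fibroblast and endothelial, markers had 0 called and medians of 0.06 and -0.09.

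**Figure D4:**
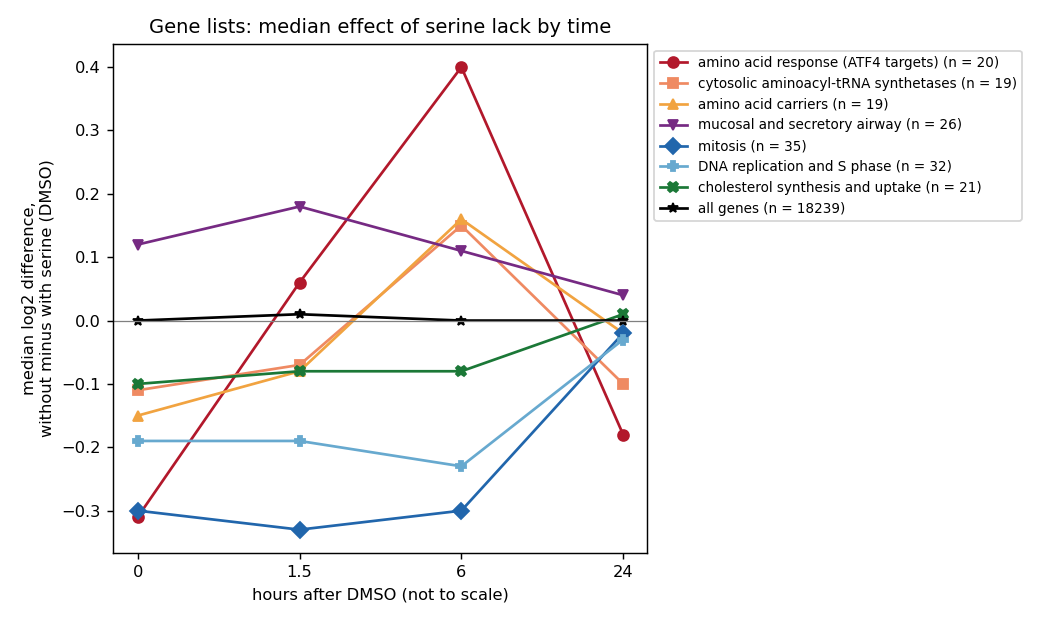
Median log2 difference without minus with serine over the measured genes of 7 lists and over all genes, in DMSO at 0, 1.5, 6 and 24 h. The list of ATF4 and its targets goes through -0.31, 0.06, 0.40 and -0.18, and the mitosis list through -0.30, -0.33, -0.30 and -0.02.

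The arm given compound 16 had its own 6 arrays at 24 h, so it shows the same lack of serine without any array of the DMSO comparison. There 337 genes were higher and 463 lower without serine, or 1.85% and 2.54% of those tested and 4.39% together (509 and 365 genes under median centring). Of the 13 genes that were lower in DMSO, only OPN3 was called lower under the compound (-0.41 ± 0.06, adjusted p = 7.61e-06). CBS stood at -0.04 ± 0.08, ASNS at 0.06 ± 0.07, PSAT1 at 0.11 ± 0.08 and NUPR1 at -0.21 ± 0.12. Of the 16 higher genes, 12 were above 0 and 5 were called higher: ASS1 (0.60 ± 0.08), CEMIP (0.48 ± 0.14), FCGBP (0.36 ± 0.11), KDELR3 (0.35 ± 0.08) and ENC1 (0.28 ± 0.08). The mitosis genes, with a median of -0.02 in DMSO, had a median of -0.59 under the compound, where 32 of 35 were called lower, against 2.54% of all genes.

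The difference between the arms was tested directly, with 70 genes greater and 164 smaller under the compound than in DMSO, or 0.384% and 0.899% of those tested and 1.28% together (the greater ones were 29.9% of these calls, and 49.3% under median centring). For 9 of the 13 lower genes the serine effect was greater, meaning less negative or positive, under the compound. This contrast subtracts the DMSO difference by which the 29 genes were chosen, which favours such a count, so it is given as a description. CBS differed by 0.73 ± 0.11 (adjusted p = 8.34e-05), MARS1 by 0.62 ± 0.09 (adjusted p = 7.71e-05), ASNS by 0.55 ± 0.09 (adjusted p = 0.000319) and PSAT1 by 0.50 ± 0.11 (adjusted p = 0.0138). NUPR1 at 0.58 ± 0.17 and ATF4 at 0.26 ± 0.07 were not called (adjusted p = 0.095 and 0.0655). Of the 16 higher genes, SYT13 (-0.50 ± 0.11, adjusted p = 0.0124) and KRTAP6-2 (-0.80 ± 0.19, adjusted p = 0.0189) were smaller under the compound. For CEMIP and FCGBP the differences of -0.53 ± 0.19 and -0.44 ± 0.15 did not pass. NIBAN1, a stress-responsive gene, stood at 2.32 ± 0.16 under the compound and 0.70 ± 0.16 in DMSO, the greatest positive difference between the arms (1.62 ± 0.23, adjusted p = 2.92e-05). In DMSO its other probe sets gave -0.19 to 0.18.

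**Figure D5:**
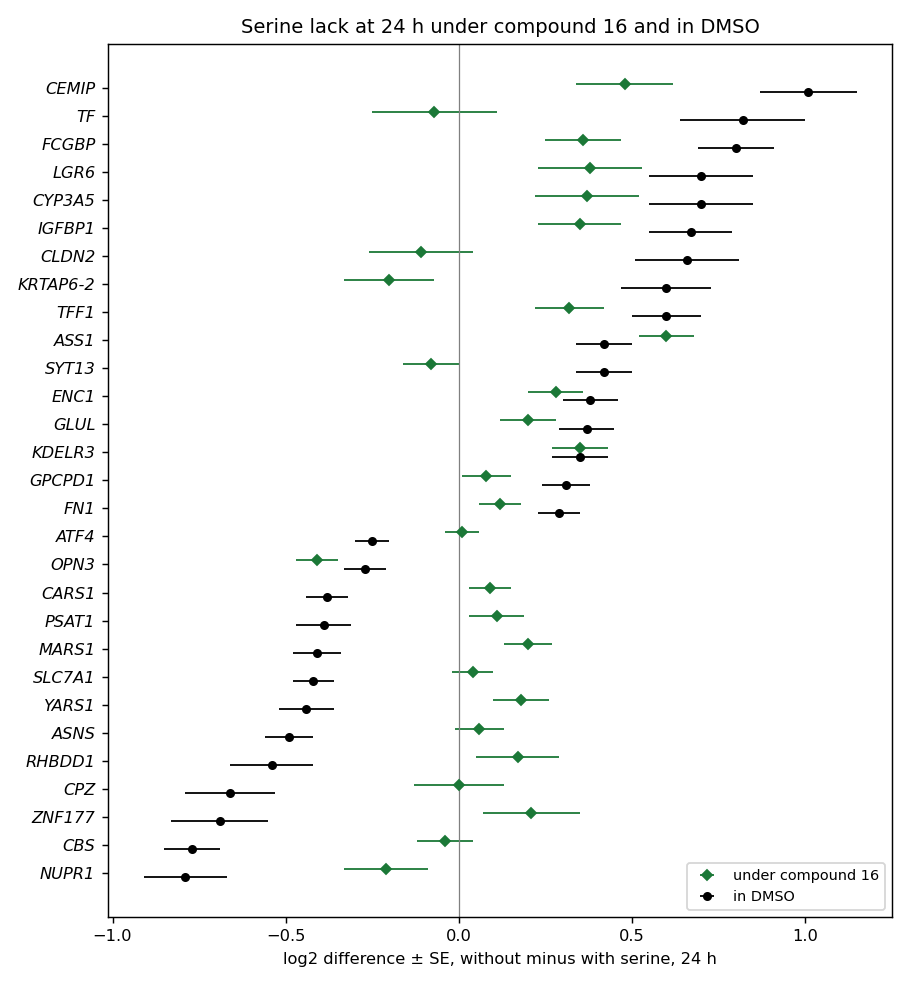
Log2 difference without minus with serine at 24 h for the 29 called genes, under compound 16 and in DMSO, with standard errors. Under the compound, CBS, ASNS and PSAT1 lie between -0.04 and 0.11, and OPN3 stays below 0 in both arms.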

How the data were processed

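Per the labels' protocols, RNA was extracted with Trizol and hybridized to Affymetrix HG-U219 GeneChips, and cells were harvested in triplicate. The submitters' processing notes name RMA and limma, and the deposited values, per the file headers a table of 50 arrays, are log2 signals that lay between 3.36 and 14.58. RMA ties the arrays together by quantile normalization of probes and shrinks differences of dim probe sets, and its settings are not stated in what was used here. Of 49386 probe sets, 45253 had 1 gene symbol in the platform annotation, 1327 had several, 2713 had none and 93 were controls, and 0 symbols needed an update to the GRCh38.p14 gene table. The set with the highest mean signal stood for each of 18239 genes, 11822 of which had several sets.

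Group means of all 17 groups (50 arrays) were fitted together with limma 3.58.1 in R 4.3.3, so the spread is estimated over all arrays with 33 residual and 3.7 prior degrees of freedom. Calls were made at an adjusted p under 0.05 (Benjamini-Hochberg, over all genes). A difference is without minus with serine, and an effect between arms or times is a difference of such differences. On simulated data with 18239 genes the fit for this comparison found 50% of genes given a log2 change of 0.5 and 92% of those given a change of 1, and called 8 unchanged genes. The number of arrays limits the precision. Alternatives were other scalings, a filter that drops the dimmest 40% of genes, the mean of all probe sets, a trended robust prior, array weights, fits of fewer arrays and leaving out single arrays. Named genes were 14 chosen genes (serine, folate and cysteine enzymes, ASNS, TXNIP, PKM and the markers CEMIP, FCGBP and NUPR1), the 15 greatest differences each way among called genes with separate arrays, the 5 greatest each way between times or arms, and up to 4 genes of each list with the smallest p among those called at 24 h, 52 in all. Other genes named from lists were chosen after their values were seen. The members, lists and rules were chosen with earlier results of these data known. Promoter sequences are from RefSeq.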

Additional observations from a re-analysis of the deposited data

Results flagged for a closer look

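Among the 52 named genes, 41 pairs of a gene and a contrast are given here; over all genes the 2 contrasts had 113 and 234 calls. In these 41 pairs, the effect of serine lack differed between times or between arms in a test of the difference itself (adjusted p under 0.05). All values are log2.

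Between 24 h and 6 h in DMSO, the effect of serine lack was lower at 24 h for genes of the amino acid response and tRNA charging: STC2 by a change of -2.39, NUPR1 -1.41, TRIB3 -1.12, ASNS -0.84, ATF4 -0.78, CARS1 -1.05, MARS1 -0.83 and YARS1 -0.72. It was also lower for the serine, folate and cysteine enzymes CBS (-1.14), MTHFD2 (-0.97), PSAT1 (-0.77) and PSPH (-0.46), for the carrier SLC7A1 (-0.88), and for SNTB1 (-1.29), CPZ (-0.76) and RHBDD1 (-0.76). The effect was higher at 24 h for SMPD4 (1.01), the aldolase ALDOC (0.90), KRTAP6-2 (0.88), the cell cycle phosphatase CDC25A (0.82) and the receptor TNFRSF12A (0.68). In the 24 h comparison the brightest sets gave 0.44 for SMPD4, 0.54 for ALDOC and 0.27 for CDC25A. Their other probe sets gave 0.12 to 0.16, 0.03 to 0.28 and -0.20 to -0.09. For SNTB1 the brightest set gave -0.44 and its other sets -0.09 to 0.38.

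Under compound 16 minus in DMSO at 24 h, the effect was greater for NIBAN1 (1.62), BEX2 (1.03), the aminotransferase BCAT1 (1.01), ZNF177 (0.90), ZNF540 (0.87), CBS (0.73), RHBDD1 (0.72), MARS1 (0.62), YARS1 (0.62), ASNS (0.55), PSAT1 (0.50), CARS1 (0.48) and SLC7A1 (0.45). It was smaller for the interferon-induced IFIT1 (-1.30), ALDOC (-1.29), FGFBP1 (-1.28), the cobalamin binder TCN1 (-1.20), BCL2L15 (-1.06), KRTAP6-2 (-0.80) and SYT13 (-0.50).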

How the results depend on the processing

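No sign of the 29 called genes turned under the other scalings or the mean of all probe sets. The remaining alternatives could not turn a sign, because the arrays of these genes did not overlap between the groups. The count of 29 called genes at 24 h became 53 with dim genes left out, 56 with the mean of all probe sets, 51 with a trended robust prior, 0 in a fit of the 6 arrays alone (1283 at an unadjusted p under 0.05), 1 in a fit of the 12 arrays of 24 h, and 9 to 39 with single arrays left out. For 9 genes (ATF4, CLDN2, FN1, GLUL, KDELR3, KRTAP6-2, LGR6, OPN3 and TF) at most 1 of the 6 fits without an array kept the call. Centring kept 21 of the 29 and quantile normalization 21. The 1.5 h count of 360 became 631 with array weights. For 24 h minus 6 h, 39 genes with a higher effect became 73 with dim genes left out, 72 with the mean of all probe sets, 63 with a trended robust prior, 2 in a fit of its own arrays and 17 to 37 with single arrays left out. The 74 with a lower effect became 15 in a fit of its own arrays and 47 to 65 with single arrays left out, the fewest of either direction without array 62. The count of 234 between the arms became 67 in a fit of its own arrays, which are those of 24 h, and 158 to 214 with single arrays left out. Over named genes and list medians, 2875 values stayed on their side of the threshold or within 1 SD, 287 calls were lost, 30 were gained, 83 medians moved and 0 calls turned; the causes were not tested. At 1.5 h, 191 higher and 169 lower genes became 82 and 395 under median centring, and at 6 h 319 and 261 became 249 and 314. No scaling moved the median of all genes by over 0.1. Background correction could not be redone from processed signals. No paired analysis was possible because the numbers in the titles are not shared between groups. Signal limits the dim genes ZNF177, CPZ and KRTAP6-2, and CEMIP and TF with serine. Among the flagged genes it also limits STC2 (24 h averages in DMSO of 5.37 without and 5.79 with serine) and ZNF540 (4.04 and 4.57). The same holds at 24 h in DMSO for NIBAN1 (5.87) and SMPD4 (5.77) with serine, and for SNTB1 (5.84) without serine.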

Other observations

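Several genes for amino acid response and growth control that were not called at 24 h differed between 24 h and 6 h in DMSO. Among PI3K, FOXO and mTOR regulators, 0 of 17 were called at 24 h. The effect of serine lack was lower at 24 h than at 6 h for 4 of the 17, against 0.406% of all genes. These were DEPTOR (-1.02), SESN2 (-0.92), DDIT4 (-0.47) and EIF4EBP1 (-0.39), which restrain mTOR signalling or cap-dependent translation. In cholesterol synthesis, the effect was higher at 24 h for 2 of 21 genes, EBP (0.37) and ACAT2 (0.36), against 0.214% of all genes. At 24 h in DMSO, 0 of the 21 were called. Under compound 16, 11 of the 21 cholesterol genes were lower without serine at 24 h, with a median of -0.34, where 2.54% of all genes were lower (463 genes, and 365 under median centring).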
